A study of Homo sapiens with 2 samples.

Results

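The genes described here are the 52 that encode the machinery of DNA replication origins and forks, chosen by name from 58884 Ensembl genes, and all 52 were found in the table by their symbols. They comprise the origin recognition complex, the licensing factors, the MCM helicase and its activators, the replicative polymerases, the sliding clamp and its loader, replication protein A, lagging-strand enzymes, fork protection proteins and chromatin assembly factor 1. RNA was measured in TPC-1 cells, an established human line of papillary thyroid carcinoma whose known driver is the CCDC6-RET fusion. XPR1, the gene of the phosphate exporter, was targeted by siRNA in one culture, and the other received a control siRNA. Both are transfected cultures of the same line with 1 library each. The differences below therefore have no replicate check and compare a pair of libraries, without p-values.

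Replication is prepared in G1, when the origin recognition complex, CDC6 and CDT1 load pairs of MCM2-7 rings on DNA. In S phase the kinase of CDC7 and DBF4 and a set of firing factors add CDC45 and the GINS complex to each ring, which makes it an active helicase, and polymerases alpha, delta and epsilon copy the strands behind it. Transcription of many of these genes is known to depend on E2F factors and to be higher in cells that go from rest into the cycle, while some subunits are made throughout.

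The libraries held about 15150000 counted reads after XPR1 siRNA and 15780000 after control siRNA, as reckoned from the TPM values and gene lengths. XPR1 was 5.31 TPM in the XPR1-siRNA library and 39.2 TPM in the control library, a remaining share of 13.5%, with an exact Clopper-Pearson interval at 95% confidence of 11.6% to 15.8% that covers counting error only. Of 7 thyroid markers, PAX8 and FOXE1 had a mean of at least 1 TPM, while NKX2-1, TSHR and the iodide transporter SLC5A5 were listed at 0 TPM in both libraries. Of 6 epithelial markers, KRT8, KRT18 and KRT7 passed 1 TPM and EPCAM was listed at 0 TPM. None of 4 leukocyte markers, 1 of 3 endothelial markers (PECAM1) and 1 of 4 fibroblast markers (COL1A1) did so. The summed level of the thyroid markers was 423.3 TPM after XPR1 siRNA and 600.3 TPM after control siRNA, and that of the epithelial markers 135.5 TPM after XPR1 siRNA and 197.2 TPM after control siRNA. The summed level of the fibroblast markers was 7.78 TPM after XPR1 siRNA and 1.19 TPM after control siRNA, with DCN at 0 TPM in both. The part of these marker differences in the results was not tested.

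Because members that differ together invite a look at what lies before their starts, promoter sequences were taken from RefSeq (GRCh38.p14, the 300 bases from 250 before to 50 after a gene start). They are shown for 4 members that were higher after XPR1 siRNA and for 2 that were not. Capitals mark matches, on either strand, to the E2F-type letters TTTCCCGC, TTTCGCGC, TTTGCCGC and TTTGGCGC and to CCAAT, the box bound by NF-Y. Each sequence reads 5′ to 3′ along the strand of its gene. PCNA has a second window, which holds CCAAT boxes but no E2F-type match and is not printed.
PCNA (chr20:5126573-5126872, minus strand): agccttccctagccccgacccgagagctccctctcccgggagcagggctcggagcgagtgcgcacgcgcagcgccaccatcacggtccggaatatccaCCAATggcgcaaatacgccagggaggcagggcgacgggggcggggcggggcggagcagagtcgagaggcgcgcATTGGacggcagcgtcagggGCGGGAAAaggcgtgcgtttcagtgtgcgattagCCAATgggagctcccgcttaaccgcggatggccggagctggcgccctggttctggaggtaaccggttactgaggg
GINS2 (chr16:85688905-85689204, minus strand): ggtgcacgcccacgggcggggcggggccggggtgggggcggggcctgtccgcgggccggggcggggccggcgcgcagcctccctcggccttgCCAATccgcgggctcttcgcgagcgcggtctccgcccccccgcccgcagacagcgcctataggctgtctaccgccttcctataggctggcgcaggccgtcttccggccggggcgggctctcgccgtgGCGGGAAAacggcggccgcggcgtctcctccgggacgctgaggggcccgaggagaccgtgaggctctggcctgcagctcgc
MCM3 (chr6:52284693-52284992, minus strand): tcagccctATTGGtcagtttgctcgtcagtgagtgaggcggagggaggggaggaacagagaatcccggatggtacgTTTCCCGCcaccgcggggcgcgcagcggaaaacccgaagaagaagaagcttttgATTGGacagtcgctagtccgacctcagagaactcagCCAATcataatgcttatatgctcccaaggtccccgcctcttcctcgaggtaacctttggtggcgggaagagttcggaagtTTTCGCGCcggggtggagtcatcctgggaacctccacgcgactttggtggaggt
MCM6 (chr2:135876394-135876693, minus strand): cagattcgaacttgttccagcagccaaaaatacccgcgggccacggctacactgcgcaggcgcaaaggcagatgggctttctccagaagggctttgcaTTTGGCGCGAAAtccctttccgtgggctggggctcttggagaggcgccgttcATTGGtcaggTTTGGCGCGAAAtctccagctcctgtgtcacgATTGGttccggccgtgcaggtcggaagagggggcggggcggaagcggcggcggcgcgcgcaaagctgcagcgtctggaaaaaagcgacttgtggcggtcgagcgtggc
ORC2 (chr2:200963611-200963910, minus strand): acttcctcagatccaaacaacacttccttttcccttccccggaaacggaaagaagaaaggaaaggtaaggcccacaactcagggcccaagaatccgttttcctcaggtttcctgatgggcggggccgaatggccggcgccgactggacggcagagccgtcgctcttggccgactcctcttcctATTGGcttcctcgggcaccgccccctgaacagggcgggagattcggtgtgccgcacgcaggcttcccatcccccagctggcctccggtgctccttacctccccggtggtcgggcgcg
RFC1 (chr4:39366313-39366612, minus strand): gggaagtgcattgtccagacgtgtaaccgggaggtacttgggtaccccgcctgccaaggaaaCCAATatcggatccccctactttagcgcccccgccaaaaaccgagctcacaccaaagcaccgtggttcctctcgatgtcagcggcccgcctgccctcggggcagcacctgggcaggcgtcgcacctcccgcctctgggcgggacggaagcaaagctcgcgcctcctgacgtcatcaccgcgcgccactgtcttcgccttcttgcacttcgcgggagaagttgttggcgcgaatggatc

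PCNA was the member with the largest difference, and its printed window holds 1 E2F-type match between CCAAT boxes. GINS2 holds 1 E2F-type match, MCM3 holds 2, and MCM6 holds 4, as the letters TTTGGCGCGAAA occur at 2 places in it and each counts as a pair of overlapping matches on opposite strands. The windows of ORC2, which was close to control, and RFC1, which was lower, hold a CCAAT box and none of the E2F-type letters. The 6 windows are examples and do not stand for the members as a whole, since TIPIN, CDC7 and CDT1, all within 1.5-fold, hold E2F-type matches and MCM10, next to PCNA in difference, holds none. Such letters are a description of the window and show neither binding nor its absence.

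Most of the replication machinery was higher in the XPR1-siRNA library. The summed level of the 52 genes was 1850.0 TPM after XPR1 siRNA and 850.0 TPM after control siRNA, a ratio of 2.18. In all, 51 of the 52 reached a mean of 1 TPM over both libraries, and RNASEH2A did not. On the log2(TPM + 1) scale, which understates differences of low genes, 40 of the 51 were higher by 1.5-fold or more and 1, RFC1, was lower by 1.5-fold or more. Of all 16319 genes at that level, 21.7% were higher and 16.6% lower by the same measure. A 2-fold higher level was reached by 28 members, against 10.4% of all genes. A 2-fold lower level was reached by 0 members, against 8.57% of all genes. The median difference of the members was 1.05, against 0.05 for all genes and 0.10 for the 10494 protein-coding genes within the range of member levels, of which 20.6% were at least 1.5-fold and 8.69% at least 2-fold higher. In RNA from a whole culture, a larger share of cells that express these genes and more of their RNA per cell cannot be told apart.

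**Figure D1:**
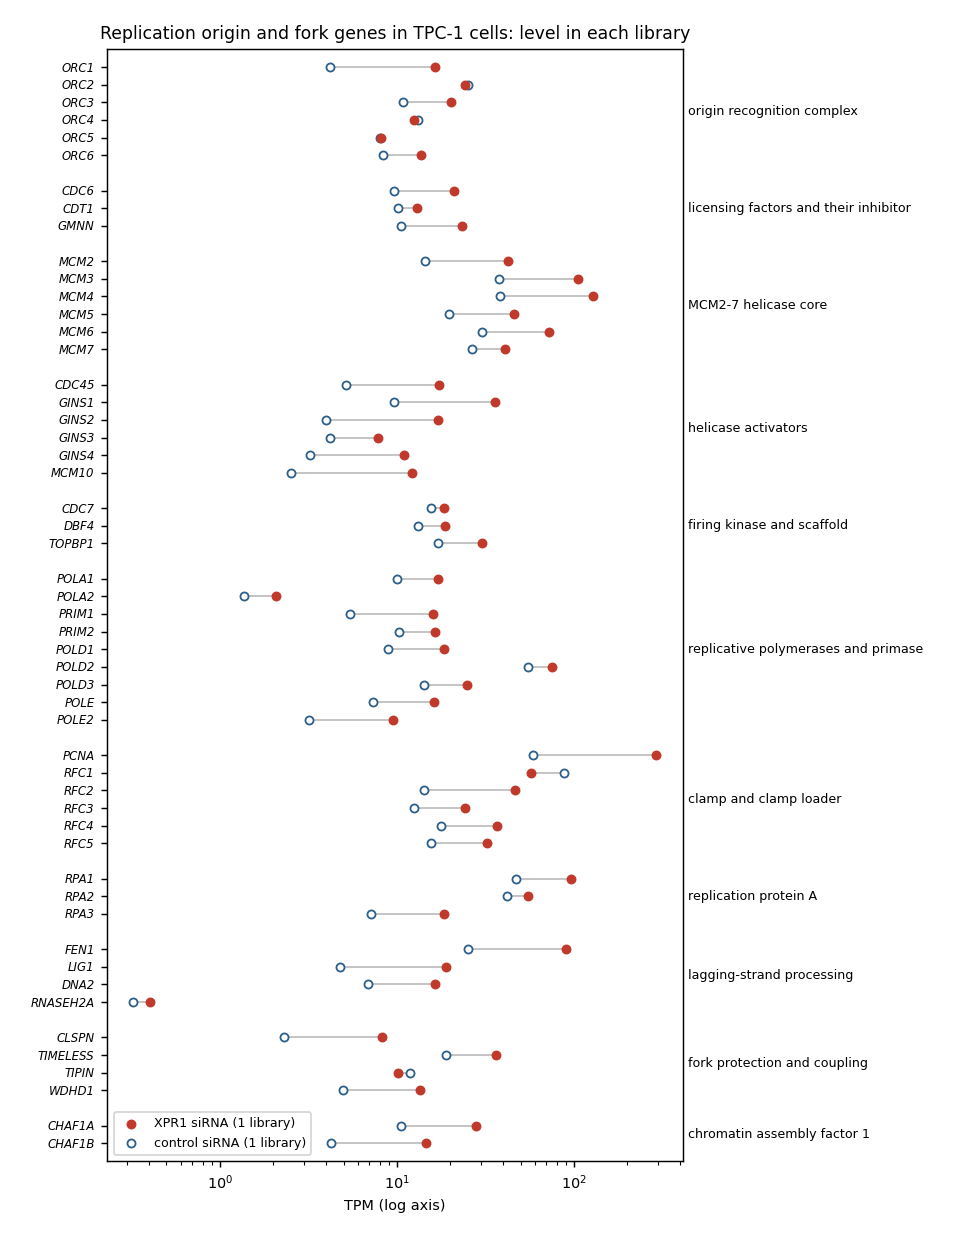
Level of each of the 52 genes in TPM (log axis) in the XPR1-siRNA library (filled red) and the control library (open blue), 1 library each, grouped by role; grey lines join the values of a gene. Most red points lie to the right of the blue ones, RFC1, TIPIN, ORC2 and ORC4 lie the other way round, and RNASEH2A is below 1 TPM in both.

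Counting error was small beside most of these differences. Reads recovered from the TPM values gave a 95% Clopper-Pearson interval for the ratio of each gene, approximate for the 26 members whose reads did not come out whole. The interval lay above equality for 44 of the 51 members, below it for RFC1, and included it for 6, namely ORC2, ORC4, ORC5, CDC7, POLA2 and TIPIN. All 40 members that were at least 1.5-fold higher had an interval above equality, whereas 16.6% of all genes met both conditions. The intervals describe these 2 libraries and say nothing of how cultures vary.

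**Figure D2:**
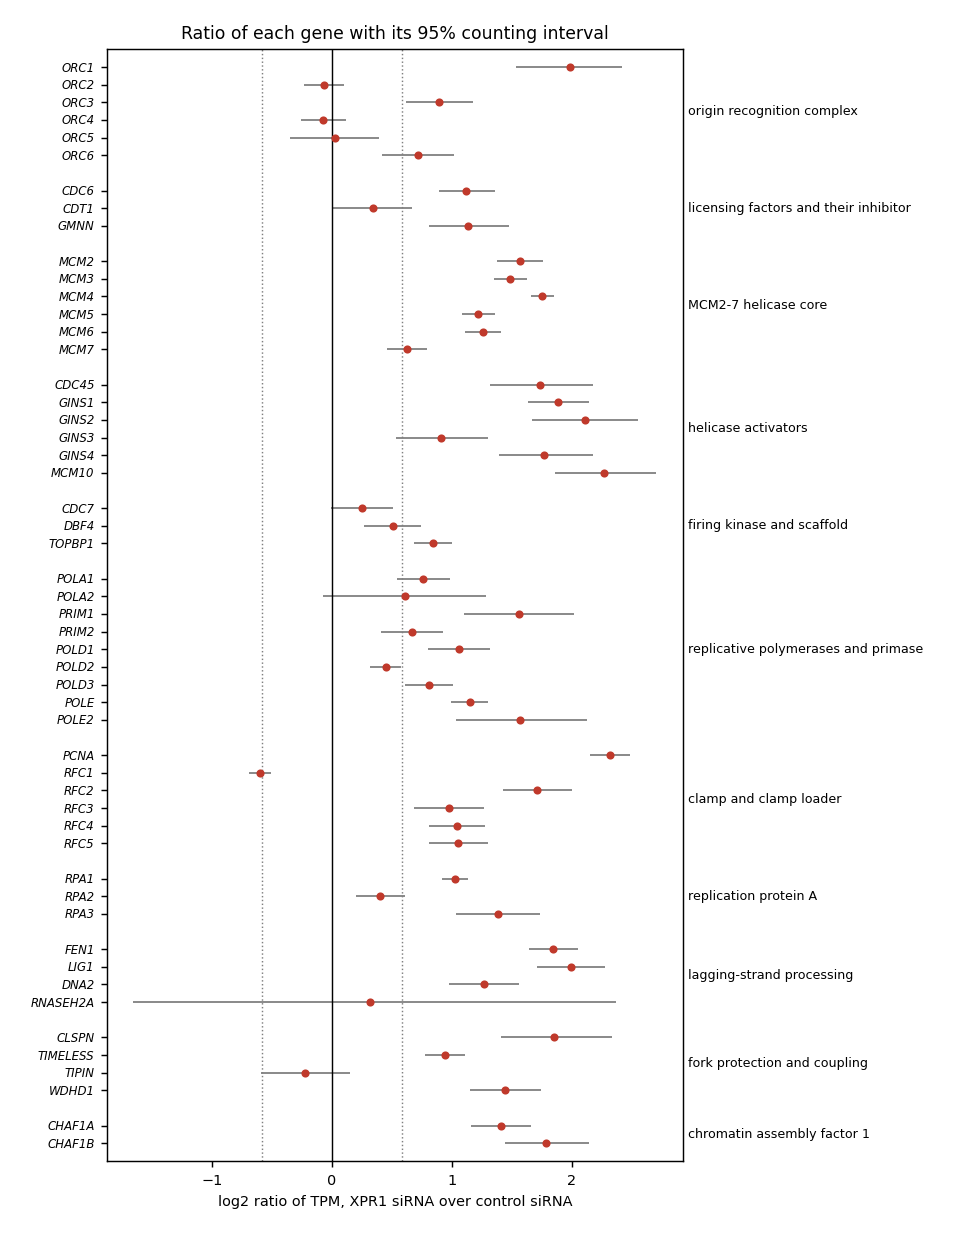
Log2 ratio of TPM, XPR1 siRNA over control siRNA, for each of the 52 genes (points) with its 95% Clopper-Pearson interval (bars, counting error of 1 library per group). Dotted lines mark 1.5-fold in either direction; PCNA lies farthest to the right, at 4.98-fold, and RFC1 is the only gene whose interval lies below 0.

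The origin recognition complex, which marks origins for loading, was split. ORC1, the subunit that in human cells is known to be lost after G1 and made anew, was 16.5 TPM after XPR1 siRNA and 4.18 TPM after control siRNA, 3.95-fold higher (2.90 to 5.36). It was the lowest subunit of the complex in the control library and stood behind only ORC2 and ORC3 in the XPR1-siRNA library. ORC3 was 20.2 TPM after XPR1 siRNA and 10.9 TPM after control siRNA, 1.86-fold higher (1.53 to 2.26). ORC6, the small subunit outside the ring, was 13.7 TPM after XPR1 siRNA and 8.36 TPM after control siRNA, 1.64-fold higher (1.33 to 2.02), a call that was lost under upper-quartile scaling (0.57) and with a pseudocount of 5 TPM (0.49). The other subunits of the complex lay close to control. ORC2 was 24.3 TPM after XPR1 siRNA and 25.4 TPM after control siRNA, with an interval of the ratio from 0.85 to 1.07. ORC4 was 12.6 TPM after XPR1 siRNA and 13.2 TPM after control siRNA, and ORC5 was 8.14 TPM after XPR1 siRNA and 8.02 TPM after control siRNA. The sign of the ORC5 difference turned under both other scalings. By level, the highest subunit was 2.98-fold above the lowest after XPR1 siRNA and 6.08-fold above it after control siRNA.

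Among the licensing factors, CDC6, the ATPase that recruits the helicase to ORC, was 21.0 TPM after XPR1 siRNA and 9.64 TPM after control siRNA, 2.17-fold higher (1.85 to 2.56). GMNN encodes geminin, which binds CDT1 and blocks loading outside G1, and was 23.4 TPM after XPR1 siRNA and 10.6 TPM after control siRNA, 2.20-fold higher (1.75 to 2.78). CDT1, the loader that geminin inhibits, differed less, at 12.9 TPM after XPR1 siRNA and 10.2 TPM after control siRNA, 1.27-fold higher (1.007 to 1.59). The ratio of GMNN to CDT1 in TPM was therefore 1.81 after XPR1 siRNA and 1.04 after control siRNA. The 3 genes had nearly equal levels in the control library, between 9.64 and 10.6 TPM.

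All 6 subunits of the MCM2-7 ring, the core of the replicative helicase, were at least 1.5-fold higher, with a median difference of 1.35 on the log2(TPM + 1) scale. MCM4 was the highest by level and by ratio, at 128.5 TPM after XPR1 siRNA and 38.1 TPM after control siRNA, 3.37-fold higher (3.15 to 3.61). MCM2 was 42.6 TPM after XPR1 siRNA and 14.4 TPM after control siRNA, 2.96-fold higher (2.59 to 3.39). MCM2 shares 23.6% of its exon bases with other genes, chiefly AC023593.1 on the opposite strand, which reached 0.0886 TPM after XPR1 siRNA and 0.0853 TPM after control siRNA. MCM3 was 105.6 TPM after XPR1 siRNA and 37.7 TPM after control siRNA, MCM6 72.6 TPM after XPR1 siRNA and 30.3 TPM after control siRNA, and MCM5 46.1 TPM after XPR1 siRNA and 19.8 TPM after control siRNA. These 3 subunits lay between 2.33-fold and 2.81-fold higher. MCM7 stood below the rest, at 40.9 TPM after XPR1 siRNA and 26.6 TPM after control siRNA, 1.54-fold higher (1.37 to 1.73). Its interval did not overlap that of any other subunit of the ring, and its difference fell within 1.5-fold under median-of-ratios scaling (0.55), upper-quartile scaling (0.52) and a pseudocount of 5 TPM (0.54). The ring carries 1 copy of each subunit, whereas the highest transcript was 3.14-fold above the lowest after XPR1 siRNA and 2.64-fold above it after control siRNA.

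The factors that turn the loaded ring into an active helicase had low levels and large ratios. All 6 were at least 1.5-fold higher, with a median difference of 1.67, and their sum was 101.1 TPM after XPR1 siRNA and 28.8 TPM after control siRNA. MCM10, which is needed for the ring to open and move, was 12.2 TPM after XPR1 siRNA and 2.52 TPM after control siRNA, 4.82-fold higher (3.62 to 6.52), from 269 and 58 reads. CDC45, the partner of the ring and of GINS, was 17.2 TPM after XPR1 siRNA and 5.16 TPM after control siRNA, 3.34-fold higher (2.497 to 4.51). Of the GINS complex, GINS2 was 17.1 TPM after XPR1 siRNA and 3.98 TPM after control siRNA, 4.31-fold higher (3.18 to 5.87). GINS1 was 35.8 TPM after XPR1 siRNA and 9.70 TPM after control siRNA, 3.69-fold higher (3.11 to 4.42). GINS4 was 10.99 TPM after XPR1 siRNA and 3.22 TPM after control siRNA, 3.41-fold higher (2.63 to 4.51). GINS4 shares 23.6% of its exon bases with other genes, chiefly AC009630.2 on the opposite strand. AC009630.2 was 0.207 TPM after XPR1 siRNA and was listed at 0 TPM after control siRNA. GINS3 differed least, at 7.86 TPM after XPR1 siRNA and 4.18 TPM after control siRNA, 1.88-fold higher (1.45 to 2.46). Its interval lay below those of the other GINS subunits, and a pseudocount of 5 TPM placed it within 1.5-fold (0.49).

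The kinase that fires origins lay within 1.5-fold of control in both of its subunits. CDC7, its catalytic subunit, was 18.6 TPM after XPR1 siRNA and 15.6 TPM after control siRNA, with an interval of the ratio from 0.995 to 1.43. DBF4, the subunit that activates CDC7, was 18.8 TPM after XPR1 siRNA and 13.3 TPM after control siRNA, 1.42-fold higher (1.21 to 1.68). TOPBP1, a scaffold in firing and in checkpoint signalling, was 30.5 TPM after XPR1 siRNA and 17 TPM after control siRNA, 1.79-fold higher (1.61 to 2.00), and was the only one of the 3 past 1.5-fold.

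Of the 9 polymerase and primase subunits, 7 were at least 1.5-fold higher on the log2(TPM + 1) scale, with a median difference of 0.77. The small catalytic subunit of primase, PRIM1, had the largest ratio of its complex, at 15.96 TPM after XPR1 siRNA and 5.41 TPM after control siRNA, 2.95-fold higher (2.15 to 4.05). PRIM2, the large primase subunit, was 16.4 TPM after XPR1 siRNA and 10.3 TPM after control siRNA, 1.59-fold higher (1.33 to 1.90), a call lost under median-of-ratios scaling (0.57), upper-quartile scaling (0.53) and with a pseudocount of 5 TPM (0.48). The 2 transcripts thus had nearly equal levels after XPR1 siRNA, with a PRIM1 to PRIM2 ratio of 0.976, against 0.525 after control siRNA. PRIM1 shares 21.6% of its exon bases with other genes, so its level can depend on how shared reads were counted. The chief of these, AC117378.1 on the same strand, was listed at 0 TPM in both libraries. POLA1, the catalytic subunit of polymerase alpha, was 16.99 TPM after XPR1 siRNA and 10.02 TPM after control siRNA, 1.70-fold higher (1.45 to 1.98), and was within 1.5-fold with a pseudocount of 5 TPM (0.55). POLA2, its regulatory subunit, had few reads, at 2.08 TPM after XPR1 siRNA and 1.36 TPM after control siRNA (48 and 33 reads). The ratio of POLA2 was 1.53 (0.95 to 2.43), while its difference of 0.38 on the log2(TPM + 1) scale lay within 1.5-fold. POLA2 shares 35.1% of its exon bases with AP000944.2 on the same strand, which was 0.174 TPM after XPR1 siRNA and 1.23 TPM after control siRNA, so its level can depend on how shared reads were counted.

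Polymerase epsilon, which copies the leading strand, was higher in both listed subunits. POLE was 16.2 TPM after XPR1 siRNA and 7.31 TPM after control siRNA, 2.22-fold higher (1.99 to 2.47), and POLE2 was 9.502 TPM after XPR1 siRNA and 3.21 TPM after control siRNA, 2.96-fold higher (2.05 to 4.36). Polymerase delta, which copies the lagging strand, was uneven. POLD1, its catalytic subunit, was 18.5 TPM after XPR1 siRNA and 8.89 TPM after control siRNA, 2.08-fold higher (1.74 to 2.49). POLD3 was 24.9 TPM after XPR1 siRNA and 14.2 TPM after control siRNA, 1.75-fold higher (1.52 to 2.01). POLD2, an accessory subunit with the highest level of the 9 members of this role, was 74.9 TPM after XPR1 siRNA and 55.0 TPM after control siRNA, 1.36-fold higher (1.25 to 1.49).

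PCNA, the sliding clamp that holds polymerases on DNA, stood first among the members in level after XPR1 siRNA and in ratio. It was 292.5 TPM after XPR1 siRNA and 58.8 TPM after control siRNA, 4.98-fold higher (4.44 to 5.58), from 1747 and 365 reads. PCNA made up 15.8% of the summed member TPM after XPR1 siRNA and 6.92% after control siRNA. Among 11698 protein-coding genes at or above the same floor, 53 had a larger positive difference. The pseudogenes PCNAP1, PCNAP3 and PCNAP4, whose sequences resemble PCNA, were listed at 0 TPM in both libraries.

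The clamp loader, which opens PCNA and places it on DNA, held members on both sides. RFC1, its large subunit, was 57.6 TPM after XPR1 siRNA and 87.4 TPM after control siRNA, 1.52-fold lower (1.43 to 1.62). It lay just past the threshold, at -0.59 on the log2(TPM + 1) scale, and a pseudocount of 5 TPM placed it within 1.5-fold (-0.56). RFC2 was 46.7 TPM after XPR1 siRNA and 14.3 TPM after control siRNA, 3.27-fold higher (2.69 to 4.01). RFC3 was 24.4 TPM after XPR1 siRNA and 12.4 TPM after control siRNA, RFC4 36.7 TPM after XPR1 siRNA and 17.9 TPM after control siRNA, and RFC5 32.2 TPM after XPR1 siRNA and 15.5 TPM after control siRNA. These 3 small subunits had almost the same ratio, between 1.96 and 2.07. RFC1 is the subunit that is particular to this loader, since RFC2 to RFC5 are also known to serve in alternative loaders. By level, RFC1 was 1.23 times RFC2 after XPR1 siRNA and 6.13 times RFC2 after control siRNA.

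Replication protein A coats single-stranded DNA as a trimer. RPA1, the large subunit, was 96.3 TPM after XPR1 siRNA and 47.3 TPM after control siRNA, 2.04-fold higher (1.89 to 2.19). RPA3, the smallest, was 18.5 TPM after XPR1 siRNA and 7.11 TPM after control siRNA, 2.60-fold higher (2.05 to 3.33). RPA2, the subunit that checkpoint kinases phosphorylate, was 55.2 TPM after XPR1 siRNA and 41.8 TPM after control siRNA, 1.32-fold higher (1.15 to 1.52), with an interval below those of the other subunits.

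Of the 4 enzymes that finish Okazaki fragments, LIG1 and FEN1 had large ratios, DNA2 a smaller one and RNASEH2A too few reads. LIG1, the ligase that seals them, was 18.9 TPM after XPR1 siRNA and 4.76 TPM after control siRNA, 3.97-fold higher (3.27 to 4.84). FEN1, the nuclease that trims the flaps, was 90.2 TPM after XPR1 siRNA and 25.1 TPM after control siRNA, 3.59-fold higher (3.13 to 4.13). FEN1 shares 8.7% of its exon bases with other genes, chiefly TMEM258 on the opposite strand, which was 24.2 TPM after XPR1 siRNA and 27.3 TPM after control siRNA. DNA2, which cuts long flaps, was 16.4 TPM after XPR1 siRNA and 6.83 TPM after control siRNA, 2.40-fold higher (1.97 to 2.95). RNASEH2A, the catalytic subunit of ribonuclease H2, was 0.405 TPM after XPR1 siRNA and 0.325 TPM after control siRNA, from 6 and 5 reads, which is too few for a comparison (interval of the ratio 0.32 to 5.17). It shares 30.8% of its exon bases with THSD8 on the same strand, and whether this bears on its low level was not tested.

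At the fork, CLSPN encodes claspin, which links the helicase to checkpoint signalling, and was 8.30 TPM after XPR1 siRNA and 2.30 TPM after control siRNA, 3.61-fold higher (2.66 to 5.05). WDHD1, which tethers polymerase alpha to the helicase, was 13.5 TPM after XPR1 siRNA and 4.97 TPM after control siRNA, 2.72-fold higher (2.22 to 3.34). TIMELESS, which travels with the fork, was 36.3 TPM after XPR1 siRNA and 18.9 TPM after control siRNA, 1.92-fold higher (1.72 to 2.16). TIPIN, its obligate partner, was not, at 10.2 TPM after XPR1 siRNA and 11.9 TPM after control siRNA, with an interval of the ratio from 0.66 to 1.11. The TIPIN to TIMELESS ratio in TPM was 0.28 after XPR1 siRNA and 0.627 after control siRNA. TIPIN shares 21.0% of its exon bases with the pseudogene RPL9P25, which was listed at 0 TPM in both libraries.

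Both large subunits of chromatin assembly factor 1, which deposits histones behind the fork, were higher. CHAF1B was 14.5 TPM after XPR1 siRNA and 4.23 TPM after control siRNA, 3.44-fold higher (2.72 to 4.41), and CHAF1A was 27.9 TPM after XPR1 siRNA and 10.5 TPM after control siRNA, 2.65-fold higher (2.24 to 3.15).

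The members with low control levels had the larger ratios more often. Of 21 members below 10 TPM in the control library, 16 were at least 2-fold higher, and of 30 at or above that level, 12 were. Over all levels, 10.4% of all genes were at least 2-fold higher. Shares of all genes below and above 10 TPM were not reckoned, so the contrast is not set apart as a trait of the members. Across the 51 members, Spearman's rho between the control level and the ratio was -0.37, a description only, since the control level is part of the ratio and all genes share the same pair of libraries.

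A list of 69 other genes of replication and its control was set beside the members, and 68 of them reached a mean of 1 TPM. Of these, 26 were higher and 1 was lower by 1.5-fold or more, with a median difference of 0.39, against 1.05 for the members and 0.05 for all genes. The shares of all genes past that fold were 21.7% higher and 16.6% lower, as above. Accessory subunits of the same complexes had a median of 0.17, with 3 of 11 higher, and of the ATR checkpoint 2 of 11 were higher and 9 within 1.5-fold, shares near that of all genes. Of 18 E2F factors and related regulators of transcription, 5 were higher, 1 was lower and 12 lay within 1.5-fold, with a median of 0.04. Other firing factors were higher in 3 of 4 cases, and alternative clamp loaders and unloaders in 2 of 3. CHTF8, listed with the latter but below the floor, was 0.584 TPM after XPR1 siRNA and 1.265 TPM after control siRNA. Histone chaperones and genes that copy chromatin were higher in 5 of 9 cases. Genes of ubiquitin control of licensing and helicase unloading were higher in 5 of 9, and topoisomerases in 1 of 3. The highest were MYBL2, a transcription factor of proliferating cells, at 124.7 TPM after XPR1 siRNA and 34.8 TPM after control siRNA, and DSCC1, which belongs to an alternative clamp loader, at 13.8 TPM after XPR1 siRNA and 3.34 TPM after control siRNA. E2F8 was 9.53 TPM after XPR1 siRNA and 2.75 TPM after control siRNA. Lowest were E2F7, HUS1 and RNASEH2B. E2F7, like E2F8 a repressor of E2F targets, was the single gene past 1.5-fold in the lower direction, at 19.3 TPM after XPR1 siRNA and 43.3 TPM after control siRNA, 2.24-fold lower. HUS1, a part of the checkpoint clamp, was 11.7 TPM after XPR1 siRNA and 15.7 TPM after control siRNA. RNASEH2B, a partner of RNASEH2A, was 2.75 TPM after XPR1 siRNA and 3.87 TPM after control siRNA. E2F1, an activator of replication genes, was 20.8 TPM after XPR1 siRNA and 8.28 TPM after control siRNA, 2.51-fold higher. Of genes named after their values were seen, the activator E2F2 was 5.41 TPM after XPR1 siRNA and 1.39 TPM after control siRNA, and E2F3 was 41.9 TPM after XPR1 siRNA and 43.2 TPM after control siRNA.

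**Figure D3:**
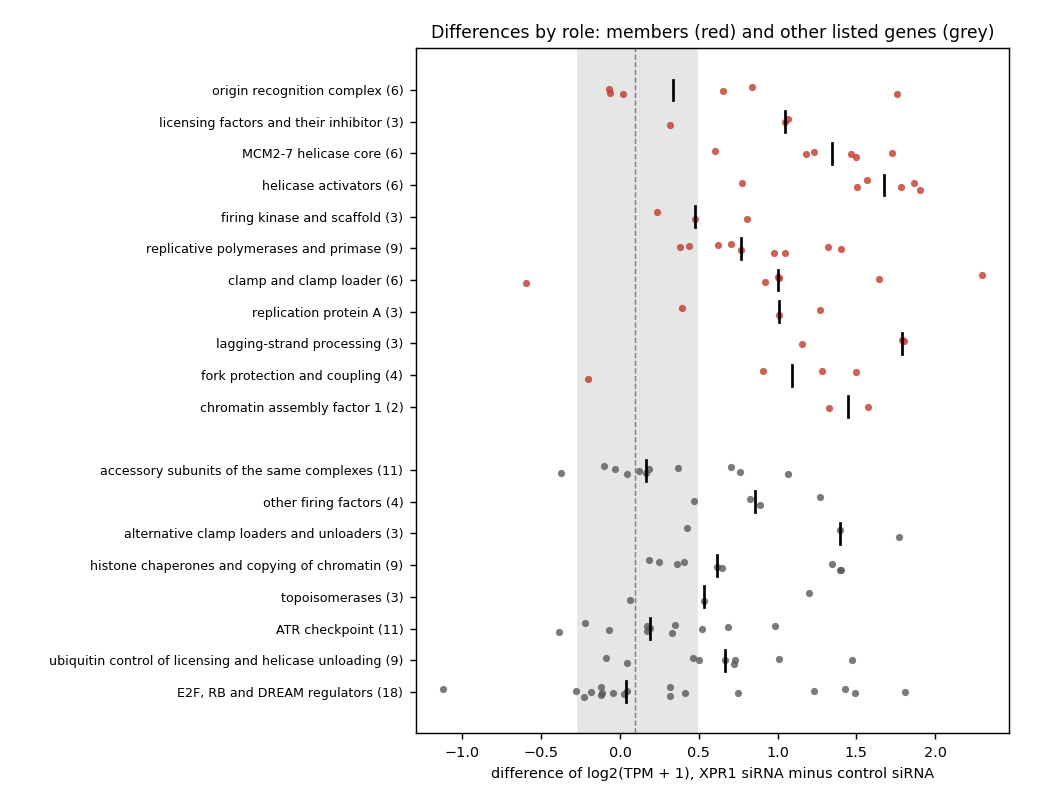
Difference of log2(TPM + 1), XPR1 siRNA minus control siRNA, for the 51 members (red) and 68 other listed genes (grey) at or above the floor of 1 TPM, by role, with the number of genes in brackets; points are genes from 1 library per group and black ticks are medians. The grey band spans the quartiles of all protein-coding genes (-0.27 to 0.49) and the dashed line their median; the medians of helicase activators (1.67) and lagging-strand enzymes (1.79) lie farthest to the right.

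Promoter windows were found for 45 of the 52 members, 56 windows in all. Of the 45 members, 22 (48.9%) held an E2F-type match in at least 1 window, against 6.81% of 9579 expressed protein-coding genes and 3.99% of all 27305 genes in the RefSeq table. A CCAAT box was held by 57.8% of the members, against 43.6% of expressed protein-coding genes. GGGCGG, the box bound by SP1, was held by 77.8% of the members and 77.7% of expressed protein-coding genes. The letters TTTGAA or TTCGAA, known from genes of mitosis as the CHR element, were held by 4.44% of the members and 15.4% of expressed protein-coding genes. All shares count both strands and any window of a gene, and 1 E2F-type match in the member windows overlapped a CCAAT match.

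Of 30 E2F-type matches in the member windows, 24 began no more than 100 bases before the start or after it. The 30 include 4 pairs of overlapping matches. Where such matches lie in the windows of other genes was not reckoned. Their position is therefore not set apart as a trait of the members. The 22 members with a match had a median difference of 1.05 and the 23 without, RNASEH2A among them, had 1.00. Members without a match included MCM10, ORC1, FEN1 and CDC45. Those with one included CDC7, CDT1, POLA2 and TIPIN, which were within 1.5-fold on the log2(TPM + 1) scale.

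**Figure D4:**
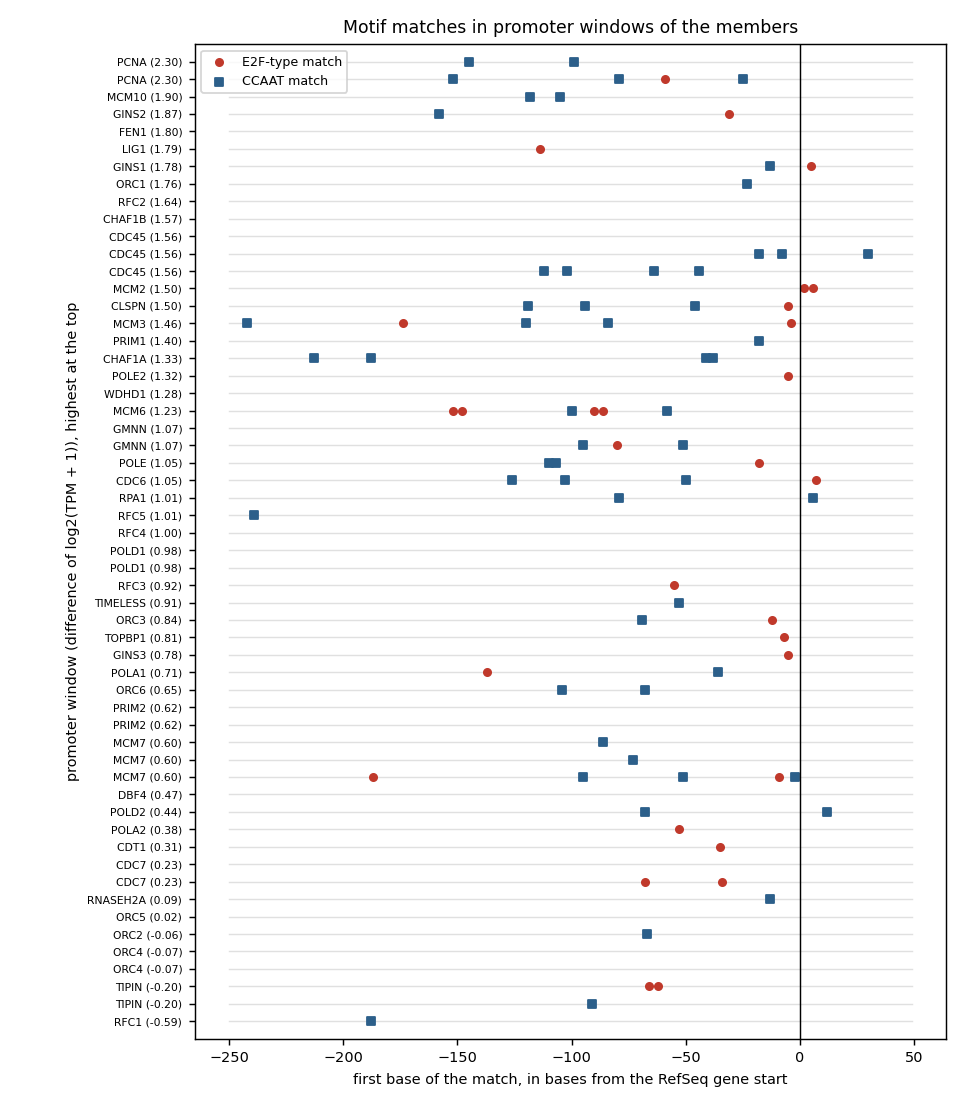
Position of E2F-type (red circles) and CCAAT (blue squares) matches in 56 promoter windows of 45 members, in bases from the RefSeq gene start, with windows ordered by the difference of log2(TPM + 1), XPR1 siRNA minus control siRNA, given in brackets. Of the 30 E2F-type matches, 24 lie from 100 bases before the start onwards, and they occur from the top of the order (PCNA, 2.30) to near its foot (TIPIN, -0.20).

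The members lie on 20 chromosomes. Of them, 12 start within 1000 bases of the start of a protein-coding gene that runs the other way without overlapping the member. Of these 12 neighbours, 11 reached a mean of 1 TPM, of which 0 were higher and 1 was lower by 1.5-fold or more, against 21.7% and 16.6% of all genes, counts too small to set apart from those shares. Their median difference was 0.27, against 1.28 for the 11 members beside them and 0.10 for protein-coding genes. CDS2, whose annotated start lies 160 bases from that of PCNA, was 36.1 TPM after XPR1 siRNA and 38.0 TPM after control siRNA. PRKDC, which starts 2 bases from MCM4 and encodes a kinase of DNA repair, was 349.3 TPM after XPR1 siRNA and 246.6 TPM after control siRNA, a difference of 0.50. PRPF38A, beside ORC1, was 23.6 TPM after XPR1 siRNA and 31.9 TPM after control siRNA. The single lower neighbour was MAP2K1, which encodes the kinase MEK1 and starts 71 bases from TIPIN, at 45.7 TPM after XPR1 siRNA and 84.7 TPM after control siRNA. The TIPIN promoter window beside MAP2K1 holds no E2F-type match, as the matches of TIPIN lie in its other window. Opposite-strand genes that overlap a member were not counted here. Among these, SMYD4 (with RPA1) was 12.5 TPM after XPR1 siRNA and 7.45 TPM after control siRNA. AP4M1 (with MCM7) was 6.47 TPM after XPR1 siRNA and 7.43 TPM after control siRNA.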

How the data were processed

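RNA of TPC-1 cells was sequenced in 2 libraries, 1 per group. RNeasy Plus extraction was followed by a TruSeq RNA v2 library preparation, per the labels' protocols, a kit that does not mark strand. The submitters' processing notes name FastQC, MultiQC, Trimmomatic 0.38, featureCounts 2.0.0 and GRCh38. Aligner, annotation, siRNA sequences and harvest time were not given in the sources used here. Gene levels are TPM values as the authors deposited them, and each column sums to 1000000.

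Symbols were looked up by Ensembl identifier (58472 of 58884 matched), and lengths, overlaps and coordinates were taken from GENCODE 29 (GRCh38), which held 58611. Differences are of log2(TPM + 1) for genes whose mean over both libraries reached 1 TPM. Folds of single genes are ratios of TPM, while counts of genes past 1.5-fold or 2-fold use log2(TPM + 1). TPM times exon length fell on multiples of a step of 246.3 (XPR1 siRNA) and 237.0 (control siRNA). Divided by it, 71.6% and 72.0% of genes above 0 came within 0.01 of a whole number of reads. In a gene of 2000 exonic bases, the 3 reads that a count of 0 allows are worth 0.37 and 0.356 TPM. Intervals and this limit cover counting error only and understate it where reads are copies of a molecule. The methods were tested on simulated data. Members, gene lists and motifs were chosen with earlier results of these data known. Named were, in each role, the members with the highest and lowest difference, then each one within 1.5-fold, and here all others too. Of the other list, the rule takes the 3 highest, the 3 lowest and E2F1. Alternatives were other scalings, pseudocounts, floors, the recovered reads, the mean over members and omission of members with at least 10% of exon bases shared. Python 3.11.15, numpy 2.4.6, pandas 2.3.3, scipy 1.17.1 and matplotlib 3.10.9 were used.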

Additional observations from a re-analysis of the deposited data

How the results depend on the processing

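The median difference of the members was 1.05 as reported. It was 0.99 with median-of-ratios scaling, 0.96 with upper-quartile scaling, 1.11 with a pseudocount of 0.1 TPM, 0.86 with a pseudocount of 5 TPM and 1.02 as a mean over members. With recovered whole reads, which left 25 members, it was 1.00, with 21 members higher by 1.5-fold and 12 by 2-fold. These counts are out of 25 members and those as reported are out of 51. With a pseudocount of 5 TPM, which shrinks low genes, 17 members were at least 2-fold higher, against 28 as reported, and 0 at least 1.5-fold lower, against 1. The count at least 1.5-fold higher was 40 as reported, 38 with median-of-ratios scaling, 37 with upper-quartile scaling and 35 with a pseudocount of 5 TPM. Without a floor, with a floor of 5 TPM and without members that share at least 10% of their exon bases, an alternative chosen after seeing the data, the median lay between 1.03 and 1.05. In none of these 9 alternatives did the median turn its sign. The median-of-ratios factor moved all genes by 0.056 and the upper-quartile factor by 0.091 on the log2 scale. No paired analysis was possible because neither group holds a second library, and for the same reason no replicate could be left out. Members with under 100 reads, such as POLA2 and RNASEH2A, are limited by depth. Several members with large ratios also had under 100 reads in the control library, among them POLE2 (40), CLSPN (52), GINS2 (55), ORC1 (56) and MCM10 (58).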
